A study of Rattus norvegicus with 43 samples.

Results

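The genes described here mark endothelium, the cell layer that lines blood vessels, and were followed in the distal colon of rats fed 6 diets. They were chosen by name, as the probe set annotated with each of 10 listed symbols. Of the 10 symbols, 9 had 1 probe set each, namely Kdr, Tek, Tie1, Eng, Cdh5, Pecam1, Esam, Plvap and Emcn, out of 14506 symbols named on the array, and all 9 passed the filter on low signal that left 10934 genes for testing. Vwf has no probe set named for it in the annotation used and was not analysed here.

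RNA of the distal colon wall of 11-week-old Sprague Dawley rats was measured on 43 Affymetrix arrays, 1 rat per array. Values are log2 expression levels, so differences are log2 fold changes. The diets are given in the labels as codes, and their meaning is taken from knowledge of the study: 5 Western-type diets that differ in their starch, and a control diet. HAW, 8 rats, held high-amylose wheat. LAW, 6 rats, held low-amylose wheat. HAMSB, 9 rats, held butyrylated high-amylose maize starch, and HAMS, 8 rats, held high-amylose maize starch without butyrate. LAMS, 7 rats, held low-amylose maize starch, and CON, 5 rats, was the control diet. All animals were intact rats with no transgene or further treatment named in the labels. Each piece of colon was bulk tissue with epithelium, muscle and vessels together, and its lymphoid signal differed between pieces, as given below. In such bulk tissue, fewer endothelial cells and less RNA per cell cannot be told apart.

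Blood vessels form and stay quiet under a small set of receptors on the endothelial surface. Vascular endothelial growth factor signals through Kdr, angiopoietins signal through Tek, whose activity its orphan relative Tie1 modulates, and endoglin, made by Eng, helps ligands of the BMP and TGF-beta family reach their receptors. Cells are held to each other by VE-cadherin (Cdh5), Pecam1 and Esam. Plvap builds the diaphragms that span the pores of fenestrated capillaries, a vessel type of the gut mucosa, and endomucin (Emcn) is a sialomucin of capillary and venous endothelium. Pecam1 is also found on leukocytes and platelets, and Esam on platelets.

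All 9 members had a median above the floor of 4.75, as did 30 of the 30 genes on the array from a wider endothelial list chosen with earlier results known. That floor is the 25th percentile of named genes, so passing it says that a probe set was bright and does not itself check which cells made the RNA. For the tissue label, the mean level over 11 epithelial genes was 9.87 to 11.09 and that over 11 smooth muscle genes 9.62 to 10.90 across all arrays. In RefSeq's GRCr8 annotation the receptor genes lie at chr14:32572031-32615204 (Kdr), chr5:114722815-114849535 (Tek), chr5:137285408-137305047 (Tie1) and chr3:36332190-36370324 (Eng). The junction genes lie at chr19:821875-860931 (Cdh5), chr10:92090263-92152002 (Pecam1) and chr8:45426985-45437976 (Esam), and the surface proteins at chr16:18218966-18231279 (Plvap) and chr2:228564445-228644370 (Emcn). A level of one gene is not set against that of another below, because probe sets differ in brightness.

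Promoter sequence from RefSeq, build GRCr8, matched 5 of the 10 listed symbols. The 4 windows shown here belong to 2 pairs of members. Plvap and Eng moved most clearly with the butyrylated starch. Tie1 and Emcn ran opposite to each other over all arrays, but not among the arrays of low B cell level, as given below. Each window is the 250 bases before the transcript start used here, written 5′ to 3′ along the gene. In Eng, Tie1 and Emcn that start lies inside the gene span given above, so the end of the window overlaps the span. The GGAAG of Eng and the last CTTCC of Tie1 lie in that overlap. Capitals mark GGAAG, a form of the GGAA core bound by ETS factors, or its reverse complement CTTCC. Other GGAA or TTCC stretches stay in lower case and were not counted.
Plvap, chr16:18231280-18231529, minus strand: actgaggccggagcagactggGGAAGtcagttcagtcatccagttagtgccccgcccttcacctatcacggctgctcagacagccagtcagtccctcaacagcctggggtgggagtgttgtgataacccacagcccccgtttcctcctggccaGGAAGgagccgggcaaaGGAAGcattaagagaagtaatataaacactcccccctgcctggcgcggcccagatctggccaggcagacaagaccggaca
Eng, chr3:36332029-36332278, plus strand: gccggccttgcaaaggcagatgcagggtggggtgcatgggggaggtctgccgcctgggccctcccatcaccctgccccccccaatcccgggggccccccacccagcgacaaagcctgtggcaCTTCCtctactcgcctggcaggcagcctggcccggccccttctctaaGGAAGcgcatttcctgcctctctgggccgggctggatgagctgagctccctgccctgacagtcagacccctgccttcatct
Tie1, chr5:137304982-137305231, minus strand: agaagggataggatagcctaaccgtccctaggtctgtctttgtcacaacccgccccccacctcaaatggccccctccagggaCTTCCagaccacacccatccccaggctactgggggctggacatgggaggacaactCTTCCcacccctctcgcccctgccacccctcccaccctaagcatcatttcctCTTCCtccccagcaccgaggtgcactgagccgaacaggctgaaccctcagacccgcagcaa
Emcn, chr2:228564289-228564538, plus strand: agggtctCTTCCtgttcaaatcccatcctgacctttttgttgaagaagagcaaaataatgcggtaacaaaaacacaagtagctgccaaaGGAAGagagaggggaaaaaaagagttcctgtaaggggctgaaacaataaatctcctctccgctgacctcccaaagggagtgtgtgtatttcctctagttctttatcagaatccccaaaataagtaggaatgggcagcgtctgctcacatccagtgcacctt
These letters occurred 3 times in the Plvap window, 2 times in Eng, 3 times in Tie1 and 2 times in Emcn, on either strand. The other motifs searched, likewise on either strand, were the GATA letters AGATAA, the GC box GGGCGG and the TATA box TATAAA, and none of their matches overlapped a GGAAG match. GGAAG on either strand was present in 63.3% of 33469 promoter windows of the same length, so its presence is common. A match of AGATAA was seen in none of these windows, against 10.3% of all windows. TATAAA was found once in the Plvap window, against a share of 12.9% of all windows. GGGCGG was found once each in the Plvap and Tie1 windows and not in those of Eng and Emcn, and 30.5% of all windows held it. The G and C content was 59.2% for Plvap, 68.0% for Eng, 61.6% for Tie1 and 44.4% for Emcn, against 52.2% over all windows.

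Across the 6 diets, 5 of the 9 members differed (F test over diets in limma, Benjamini-Hochberg adjusted p under 0.05 over 10934 genes), beside 30.7% of all genes tested. They were Plvap (adjusted p = 0.00132), Eng (0.00275), Tek (0.00964), Esam (0.0115) and Kdr (0.0274). The other members, Emcn (adjusted p = 0.0528), Cdh5 (0.0572), Tie1 (0.377) and Pecam1 (0.396), did not pass. HAMS had the lowest mean of the 6 diets in 6 members, Kdr, Tek, Eng, Esam, Plvap and Emcn, but the highest mean in Cdh5 and Pecam1. CON had the highest mean in 6 members, Kdr, Tek, Tie1, Eng, Esam and Emcn. The distance between the highest and the lowest diet mean was 0.66 in Emcn, 0.59 in Tek, 0.58 in Esam, 0.51 in Plvap, 0.50 in both Kdr and Pecam1, 0.43 in Eng, 0.31 in Cdh5 and 0.26 in Tie1. Neighbours in these orders were mostly closer than the larger of their SDs. The gap exceeded it only between HAMSB and HAMS in Tek, between HAW and HAMS in Esam, and between HAW and CON in Plvap. The call for Kdr was lost without CON replicate 5 or HAMS replicate 6 (adjusted p up to 0.0622 in limma).

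**Figure D1:**
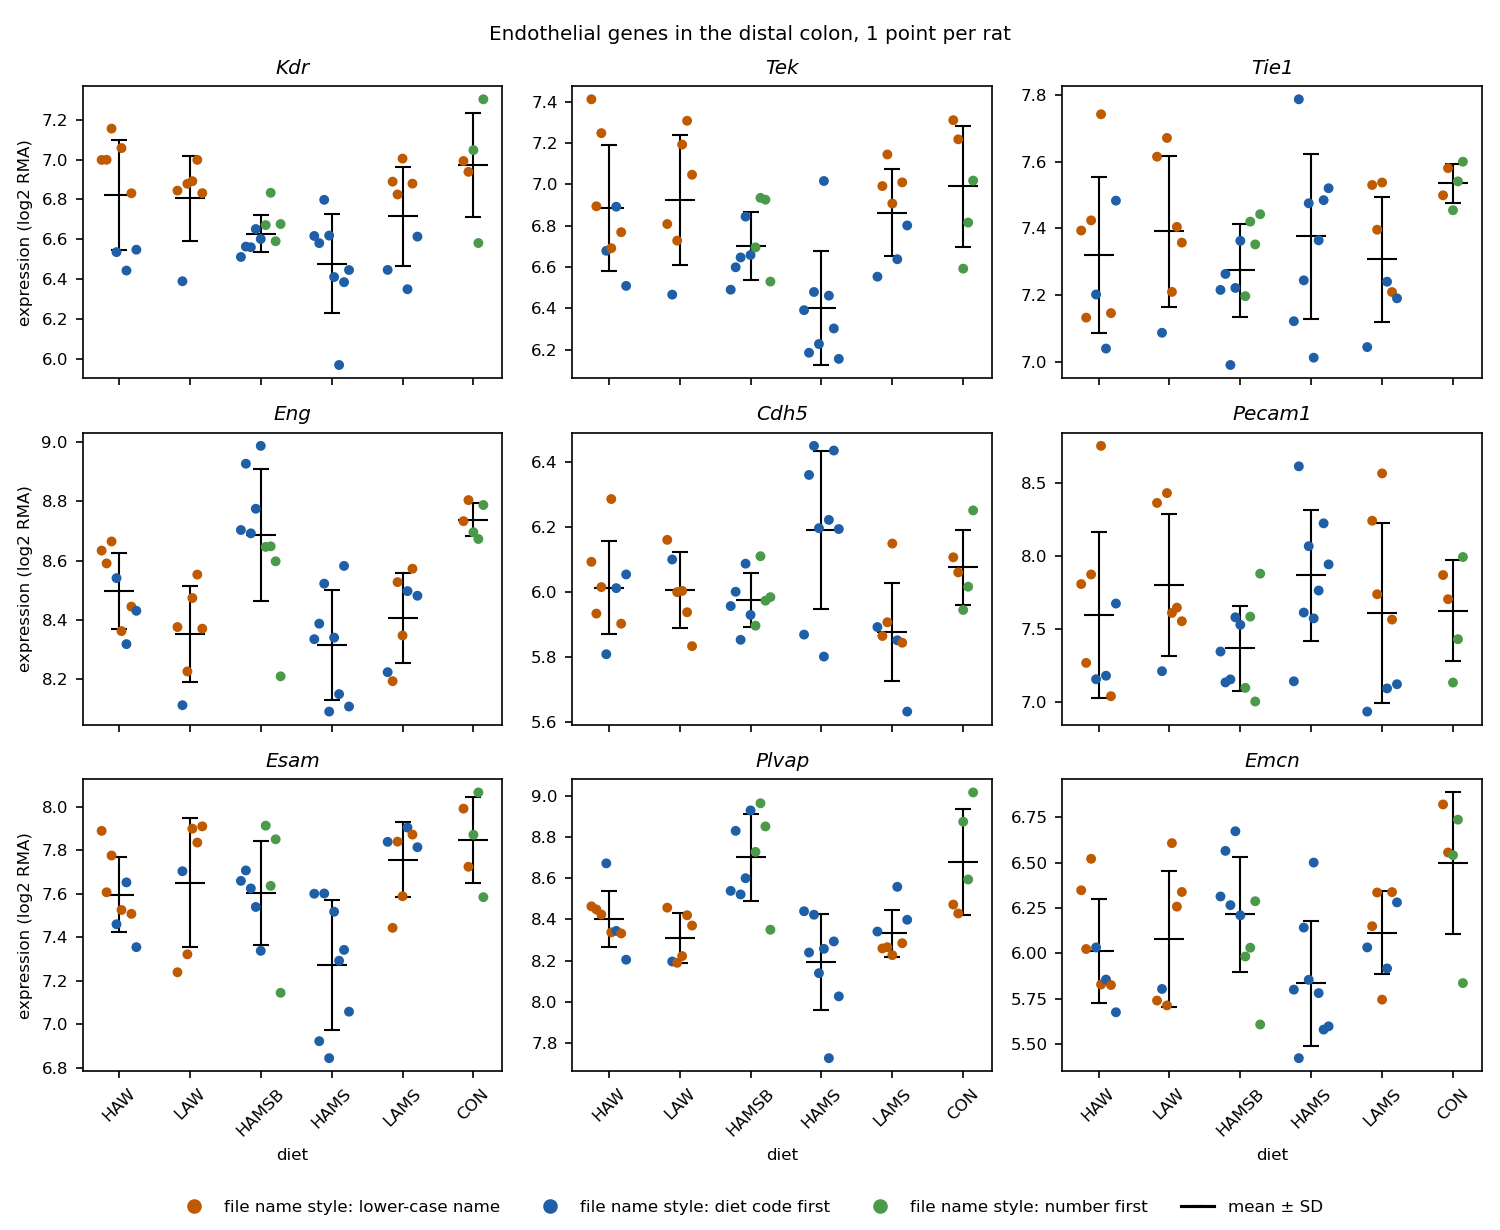
Log2 expression of the 9 endothelial members (1 panel each, vertical axis) by diet (horizontal axis, HAW, LAW, HAMSB, HAMS, LAMS and CON from left to right), with 1 point per rat, coloured by the style of its array file name, and bars for the diet mean and SD. Eng in CON sits between 8.67 and 8.80, above every array of HAW, LAW, HAMS and LAMS, whereas Plvap in HAMSB and CON has the highest means, 8.70 and 8.68.

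Eng showed the cleanest separation from the control diet. Eng was lowest at 8.32, median 8.49 and highest at 8.66 in HAW, at 8.11, 8.37 and 8.55 in LAW, at 8.09, 8.34 and 8.58 in HAMS, and at 8.19, 8.48 and 8.57 in LAMS. In CON its 5 values were 8.73, 8.80, 8.70, 8.67 and 8.79. Every one of the 29 arrays of those 4 Western-type diets therefore lay below every CON array, a pattern noticed after the values were seen, and shared by 7 of the 10934 genes (0.0640%). In HAMSB, at 8.21, 8.69 and 8.99 (lowest, median, highest), 5 of the 9 arrays lay above all 29 and the other 4 within their range, and HAMSB overlapped CON.

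The question of Western-type feeding was asked by setting the mean of the 5 Western-type diets against CON. None of the 9 members passed in limma (1.44% of all genes did, 1.34% lower and 0.0915% higher), while 6 of 9 had an unadjusted p under 0.05, against 16.8% of all genes. Of the 9 differences, 8 were below 0 and the members' median was -0.27, against -0.07 over all genes. Emcn had the largest, -0.45 ± 0.15 (SE, adjusted p = 0.104), followed by Eng at -0.29 ± 0.08 (0.065) and Plvap at -0.29 ± 0.09 (0.0853). Kdr differed by -0.28 ± 0.11, Esam by -0.27 ± 0.11, Tek by -0.24 ± 0.12 and Tie1 by -0.20 ± 0.10. Cdh5 differed by -0.06 ± 0.08 and Pecam1 by 0.02 ± 0.22. In Emcn the 38 Western-type arrays ran from 5.42 to 6.67 (median 6.03), against 6.82, 6.56, 6.54, 6.74 and 5.84 in CON. Thus 4 of the 5 CON values of Emcn lay above the median of the Western-type arrays and replicate 5 lay below it. Without that array, CON replicate 5, Emcn passed (adjusted p = 0.0405), and Eng passed without HAMS replicate 7, HAMSB replicate 9 or LAW replicate 5 (lowest adjusted p = 0.0483). With the style in which array file names were written as a block, a batch-like mark in the labels that the diets share unequally, Eng (-0.38, adjusted p = 0.021) and Emcn (-0.62, adjusted p = 0.0319) passed.

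Among the other vessel genes, the Western-type diets had 2 of 30 further endothelial genes lower and none higher. They were Adgrl4, an adhesion receptor of sprouting endothelium (-0.47 ± 0.10, adjusted p = 0.0282), and Rhoj, an endothelial GTPase (-0.49 ± 0.12, 0.0318). Of 11 genes of the VEGF and angiopoietin pathway, 1 fell, the co-receptor Nrp2 (-0.39 ± 0.10, adjusted p = 0.0345). Of 16 genes of the endoglin and BMP pathway, 2 fell, the ligand Bmp6 (-0.49 ± 0.12, adjusted p = 0.0345) and Acvrl1, the endothelial receptor that works with endoglin (-0.33 ± 0.09, 0.0425). The medians of these 3 lists were -0.17, -0.23 and -0.17. In the pericyte list 1 of 8 fell, Abcc9 (-0.42 ± 0.09, adjusted p = 0.0282), and no gene passed among 12 arterial, venous and Notch genes, 9 leukocyte adhesion genes, 6 lymphatic genes or 11 smooth muscle genes. Beside them Fbln1, a matrix gene, fell (-0.52 ± 0.13, 1 of 10 fibroblast genes), as did Ret, a receptor of enteric neurons (-0.51 ± 0.11, 1 of 8 neuron and glia genes), and the integrin Itgb3 (-0.33 ± 0.08, 1 of 7 coagulation genes). The medians were -0.42 over the neuron and glia list, -0.25 over the fibroblast list and -0.07 over all genes. Of all 10934 genes 157 passed, and 10 did with array spread as a covariate. None passed with each array centred on its median or without CON replicate 3 (0 of 10934 in limma in both), so all of these list calls were lost there.

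LAMS set against CON asks the same with maize starch alone. No gene of 10934 passed in limma (0%), with 938 genes at an unadjusted p under 0.05. All 9 members were lower in LAMS, with a median of -0.23 against -0.04 over all genes. The largest differences relative to their error were Eng, -0.33 ± 0.10 (SE, adjusted p = 0.261), and Plvap, -0.34 ± 0.11 (0.273). Emcn differed by -0.38, Kdr by -0.26, Tie1 by -0.23, Cdh5 by -0.20, Tek by -0.13, Esam by -0.09 and Pecam1 by -0.02. Eng was the only member whose LAMS and CON arrays did not overlap, a separation in the lower direction that 1.10% of all genes shared.

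HAMS set against LAMS asks what replacing low-amylose by high-amylose maize starch did. In limma 3 members passed, Tek and Esam lower and Cdh5 higher in HAMS, where 14.1% of all genes passed (12.0% lower and 2.17% higher). That was 1545 genes, and leaving out 1 array gave 614 (without LAMS replicate 6) to 2425 (without HAMS replicate 1). Tek, the angiopoietin receptor, was lowest at 6.16, median 6.35 and highest at 7.02 in HAMS, against 6.55, 6.91 and 7.14 in LAMS. In all, 7 of the 8 HAMS arrays lay below every LAMS array, and HAMS replicate 5 lay within the LAMS range. Tek fell by 0.46 ± 0.13 (SE, adjusted p = 0.0219). Esam, a junction protein, was at 6.84, 7.32 and 7.60 in HAMS, against 7.44, 7.84 and 7.91 in LAMS. Of the 8 HAMS arrays, 5 were below every LAMS array, and the difference was -0.49 ± 0.12 (adjusted p = 0.0119). Cdh5 ran the other way, at 5.80, 6.21 and 6.45 in HAMS, against 5.63, 5.86 and 6.15 in LAMS. Of the 8 HAMS arrays, 6 lay above every LAMS array, and Cdh5 rose by 0.31 ± 0.08 (adjusted p = 0.0162). Kdr (-0.24 ± 0.12), Emcn (-0.28 ± 0.16), Plvap (-0.14 ± 0.10), Eng (-0.09 ± 0.09), Pecam1 (0.26 ± 0.23) and Tie1 (0.07 ± 0.10) did not pass. The members' median was -0.14, against -0.08 over all genes.

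In those diets 3 of 30 further endothelial genes fell and none rose, with a median of -0.05, near the 12.0% of all genes that fell and their median of -0.08. They were Thbd, the thrombin receptor thrombomodulin (-0.41 ± 0.12, adjusted p = 0.0255), Clec14a (-0.47 ± 0.15, 0.0328) and Podxl, a sialomucin of the endothelial surface (-0.43 ± 0.14, 0.0347). The ligand Vegfa fell by 0.59 ± 0.14 (adjusted p = 0.0095) and the co-receptor Nrp2 by 0.39 ± 0.10 (0.0154), 2 of 11 genes of that pathway. In the endoglin and BMP list 4 of 16 genes fell, among them Smad6 (-0.49 ± 0.14) and Bmp4 (-0.48 ± 0.15). Of 12 arterial, venous and Notch genes 2 fell, the ligands Jag1 (-0.44 ± 0.10) and Efnb2 (-0.52 ± 0.17). Of 7 proteins that bind Cdh5 at the junction or its actin link, 4 fell while Cdh5 rose, among them Vcl (-0.68 ± 0.13), Afdn (-0.60 ± 0.14) and Ctnnb1 (-0.41 ± 0.10). Those partners are made by most cell types of the wall, epithelium included. The median difference was -0.10 over the VEGF and angiopoietin genes, -0.23 over the endoglin and BMP genes and -0.41 over the junction partners.

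Other cell types moved in the same comparison. Of 8 pericyte genes 4 fell, led by Abcc9 (-0.48 ± 0.10) and Rgs5 (-0.61 ± 0.17), as did 6 of 10 fibroblast and matrix genes, 3 of 11 smooth muscle genes and 3 of 11 epithelial genes. Of all genes tested 12.0% fell. The mean level over 9 B cell and germinal centre genes had a median of 8.27 in HAMS (5.06 to 9.33) and 5.21 in LAMS (5.14 to 8.78). Of the 16 genes of that list, Ms4a1 and Fcer2 were below the floor, and none of the 9 tested passed. The interquartile range of each array, its spread, was 3.01 ± 0.14 in HAMS and 3.21 ± 0.09 in LAMS (SD). All 8 HAMS arrays carried file names that start with the diet code, against 3 of 7 LAMS arrays. The part of these in the members' differences was not tested beyond the values that follow. With the name style as a block, Esam (-0.48, adjusted p = 0.0266) and Cdh5 (0.35, 0.019) passed and Tek did not (-0.23, 0.199). Within the arrays named code first, 8 HAMS and 3 LAMS, the differences were -0.58 in Esam (adjusted p = 0.0745), 0.40 in Cdh5 (0.134) and -0.26 in Tek (0.337). With the B cell level as a covariate all 3 passed, at -0.41 in Tek (adjusted p = 0.0493), 0.22 in Cdh5 (0.0467) and -0.34 in Esam (0.0255). With array spread as a covariate no member passed. The Tek call was also lost without LAMS replicate 3 or 6 (adjusted p up to 0.0561).

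HAMSB set against HAMS asks what butyrylation added to the same starch. Plvap, Eng and Esam rose in HAMSB, beside 16.7% of all genes called (14.2% higher and 2.48% lower). Leaving out 1 array moved that count of 1821 genes between 923 (without HAMS replicate 2) and 2868 (without HAMS replicate 1). Plvap was lowest at 8.35, median 8.73 and highest at 8.96 in HAMSB, against 7.73, 8.25 and 8.44 in HAMS. There, 8 of the 9 HAMSB arrays lay above every HAMS array. The difference was 0.51 ± 0.09 (SE, adjusted p = 0.00123), a 1.42-fold rise. Eng was at 8.21, 8.69 and 8.99 in HAMSB, against 8.09, 8.34 and 8.58 in HAMS. Again 8 of the 9 HAMSB arrays lay above every HAMS array, and HAMSB replicate 9 lay within the HAMS range in both genes. Eng rose by 0.37 ± 0.09 (adjusted p = 0.0042), or 1.30-fold. Esam was at 7.15, 7.64 and 7.91 in HAMSB, against 6.84, 7.32 and 7.60 in HAMS. Of the 9 HAMSB arrays, 6 exceeded every HAMS array, and the difference was 0.33 ± 0.11 (adjusted p = 0.043).

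Emcn (0.38 ± 0.15, adjusted p = 0.0722), Tek (0.30 ± 0.12, 0.0826) and Kdr (0.15 ± 0.11, 0.333) did not pass. Cdh5 (-0.21 ± 0.08, adjusted p = 0.0549), Pecam1 (-0.50 ± 0.22, 0.0997) and Tie1 (-0.10 ± 0.10, 0.474) had differences below 0 and did not pass either. The members' median was 0.30, against 0.07 over all genes. With the name style as a block Plvap (0.45, adjusted p = 0.00194) and Eng (0.46, 0.000781) passed, Esam did not (0.31, 0.0638), and Emcn (0.53, 0.0137), Cdh5 (-0.23, 0.0442) and Pecam1 (-0.57, 0.0465) did. Within the arrays named code first, 5 HAMSB and 8 HAMS, Plvap differed by 0.49 (adjusted p = 0.0182) and Eng by 0.50 (0.0105), and Esam by 0.30 (0.135). With the B cell level as a covariate Plvap (0.47, adjusted p = 0.0081) and Eng (0.32, 0.0360) passed and Esam did not (0.15, 0.413). The Esam call was lost in 12 of 17 fits that left out 1 array, HAMS replicates 2, 4, 6, 7 and 8 and HAMSB replicates 1, 2, 3, 4, 6, 7 and 8 (adjusted p up to 0.121).

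Of 30 further endothelial genes, 7 rose and 1 fell in the same comparison, with a median of 0.19, beside the 14.2% of all genes that rose and their median of 0.07. Podxl (0.63 ± 0.13, adjusted p = 0.0021), Rhoj (0.50 ± 0.12, 0.0058) and Sox18, an endothelial transcription factor (0.44 ± 0.11, 0.009), led. Of 11 VEGF and angiopoietin genes 3 rose, the ligands Vegfa (0.64 ± 0.13) and Vegfc (0.27 ± 0.08) and the co-receptor Nrp2 (0.31 ± 0.10). Of 16 endoglin and BMP genes 5 rose, led by Smad6 (0.65 ± 0.14), Bmp4 (0.62 ± 0.14) and Smad1 (0.37 ± 0.09). The Notch ligands Dll4 (0.33 ± 0.09) and Jag1 (0.28 ± 0.09) rose, 2 of 12 genes. Among 9 leukocyte adhesion genes F11r rose (0.53 ± 0.16), a junction protein that epithelium also makes, and Icam2 fell (-0.69 ± 0.24), which leukocytes also carry. The median was 0.14 over the VEGF and angiopoietin list and 0.22 over the endoglin and BMP list. Of 8 pericyte genes 3 rose, Notch3 (0.60 ± 0.13), Rgs5 (0.75 ± 0.16) and Cspg4 (0.52 ± 0.15). Beside them 4 of 11 epithelial, 3 of 10 fibroblast and 2 of 11 smooth muscle genes rose, and 2 of 9 B cell genes fell, Spib (-1.64 ± 0.57) and Bach2 (-1.55 ± 0.54). The B cell level was 5.16 to 8.30 (median 5.48) in HAMSB and 5.06 to 9.33 (median 8.27) in HAMS.

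HAMSB set against LAMS shares the HAMSB arrays with the comparison just given. Plvap and Eng rose in HAMSB and no other member passed, beside 6.78% of all genes (2.19% higher and 4.59% lower). That share is 741 genes, and leaving out 1 array gave 158 (without LAMS replicate 2) to 1384 (without LAMS replicate 1). Plvap was at 8.35, 8.73 and 8.96 in HAMSB, against 8.23, 8.28 and 8.56 in LAMS. Of the 9 HAMSB arrays, 6 lay above every LAMS array, and the difference was 0.37 ± 0.10 (SE, adjusted p = 0.0199). Eng was at 8.21, 8.69 and 8.99 in HAMSB, against 8.19, 8.48 and 8.57 in LAMS. Above every LAMS array lay 8 of the 9 HAMSB arrays, and Eng rose by 0.28 ± 0.09 (adjusted p = 0.0452). The remaining 7 members lay between -0.24 ± 0.23 (Pecam1) and 0.10 ± 0.16 (Emcn). With the name style as a block, Eng was at 0.40 (adjusted p = 0.0211) and Plvap at 0.26 (0.173). Within the arrays named code first, 5 HAMSB and 3 LAMS, Eng differed by 0.42 (adjusted p = 0.0447) and Plvap by 0.25 (0.222). Leaving out 1 array ended the Eng call in 10 of 16 fits, LAMS replicates 1, 2, 3, 4 and 6 and HAMSB replicates 1 to 5 (adjusted p up to 0.129). It ended the Plvap call in 4 of 16, LAMS replicates 2, 3 and 4 and HAMSB replicate 5 (up to 0.0577).

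Of the further endothelial genes 1 of 30 rose against LAMS, Gpr4, a proton-sensing receptor (0.39 ± 0.10, adjusted p = 0.0152). In the endoglin and BMP list 1 of 16 changed, the receptor Tgfbr1, which fell (-0.39 ± 0.12, adjusted p = 0.0444). Ctnnb1, 1 of 7 junction partners (-0.30 ± 0.10, adjusted p = 0.0491), and the collagen gene Col3a1, 1 of 10 fibroblast genes (-0.45 ± 0.14, 0.0392), fell as well. No VEGF and angiopoietin gene of 11, pericyte gene of 8, smooth muscle gene of 11, epithelial gene of 11 or B cell gene of 9 passed. Over all genes 2.19% rose and 4.59% fell, and the 1 of 30 and 1 of 16 are near those shares. HAMSB means of Plvap and Eng, 8.70 ± 0.21 and 8.69 ± 0.22 (SD, n = 9), stood beside CON means of 8.68 ± 0.26 and 8.74 ± 0.06 (n = 5). Of the CON arrays 3, and of the HAMSB arrays 4, had file names that start with a number. No array of the other diets had that style. Plvap in CON was at 8.87, 8.59 and 9.01 in those 3, and at 8.47 and 8.43 in the 2 with lower-case names. Eng in CON was at 8.70, 8.67 and 8.79, against 8.73 and 8.80. The part of name style in these means was not tested. HAMSB was not tested directly against CON. Tie1 was at 6.99 to 7.44 in HAMSB, against 7.50, 7.58, 7.45, 7.54 and 7.60 in CON. It did not pass over the diets (F test in limma, adjusted p = 0.377). How many of all genes separate these diets in the same way was not counted.

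**Figure D2:**
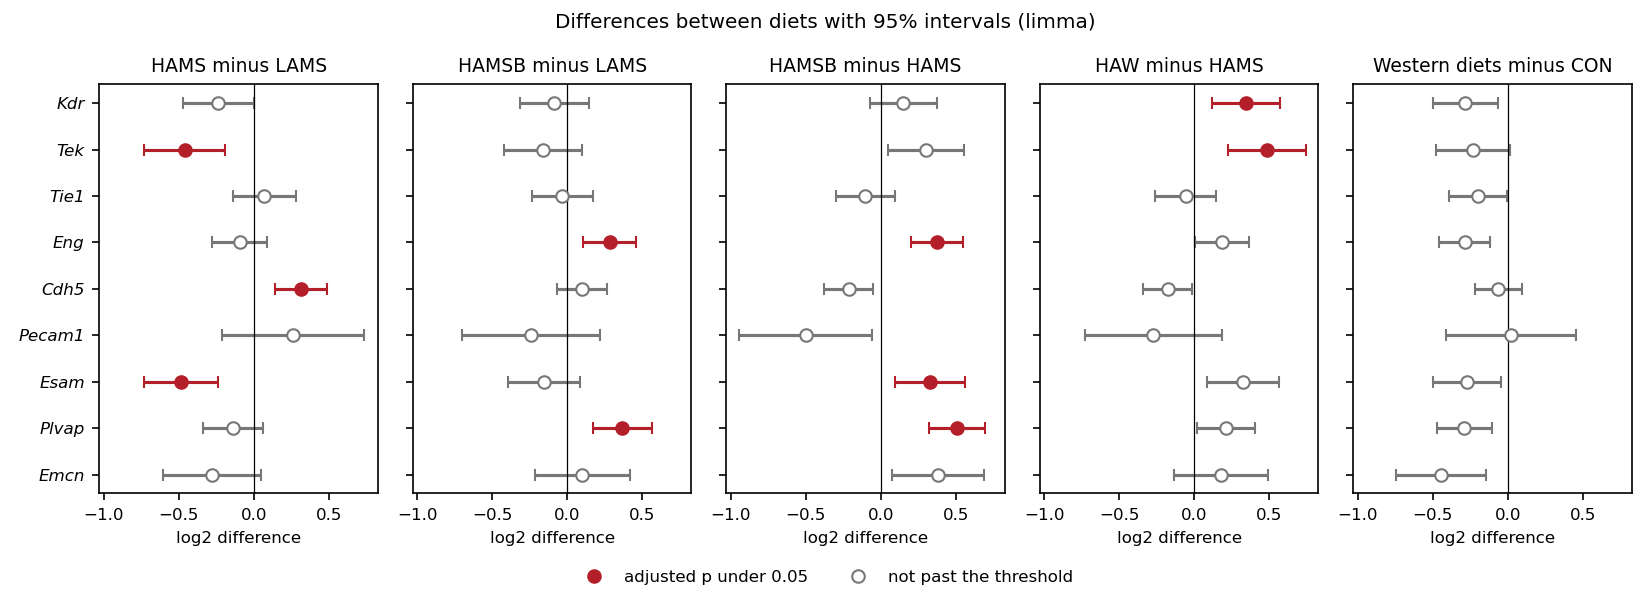
Log2 differences (horizontal axis) of the 9 members (1 row each) in 5 comparisons of diets (1 panel each), with bars for the 95% confidence interval from limma and filled points for adjusted p under 0.05. Plvap and Eng lie above 0 in both comparisons of HAMSB (0.51 and 0.37 against HAMS, 0.37 and 0.28 against LAMS), and Cdh5 lies on the other side of 0 from Tek and Esam in HAMS minus LAMS.

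No member passed between the wheat diets, nor between wheat and maize at low amylose. HAW set against LAW, the amylose comparison in wheat, called no gene of 10934 in limma (0%), 212 of them at an unadjusted p under 0.05, of which none was a member. The differences ran from -0.21 (Pecam1, 95% confidence interval -0.70 to 0.29) to 0.15 (Eng, -0.04 to 0.34). Between them lay Plvap at 0.09, Kdr at 0.02, Cdh5 at 0.01, Tek at -0.04, Esam at -0.06, Emcn at -0.06 and Tie1 at -0.07. LAW set against LAMS, wheat against maize at low amylose, also called none (0%), with 192 genes and no member at an unadjusted p under 0.05. Its differences ran from -0.11 (Esam, -0.37 to 0.16) to 0.19 (Pecam1, -0.31 to 0.70). Between them lay Cdh5 at 0.13, Kdr at 0.09, Tie1 at 0.08, Tek at 0.06, Plvap at -0.02, Emcn at -0.04 and Eng at -0.05.

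HAW set against HAMS, wheat against maize at high amylose, called Tek and Kdr, both higher in HAW, beside 13.3% of all genes (10.9% higher and 2.40% lower). Leaving out 1 array moved that count of 1458 genes between 539 (without HAW replicate 2) and 3141 (without HAW replicate 8). It shares the HAMS arrays with the comparisons above. Tek was lowest at 6.51, median 6.83 and highest at 7.41 in HAW, against 6.16, 6.35 and 7.02 in HAMS. The groups overlapped, through HAMS replicate 5, and Tek rose by 0.48 ± 0.13 (SE, adjusted p = 0.0157). Kdr, the main VEGF receptor of endothelium, was at 6.44, 6.92 and 7.16 in HAW, against 5.97, 6.51 and 6.80 in HAMS. Of the 8 HAW arrays, 5 lay above every HAMS array, and the difference was 0.34 ± 0.11 (adjusted p = 0.0399). Esam (0.32 ± 0.12, adjusted p = 0.0586), Plvap (0.21 ± 0.10, 0.121), Eng (0.18 ± 0.09, 0.137) and Emcn (0.18 ± 0.16, 0.426) did not pass. Cdh5 (-0.18 ± 0.08, adjusted p = 0.125), Pecam1 (-0.27 ± 0.23, 0.400) and Tie1 (-0.06 ± 0.10, 0.721) had differences below 0 and did not pass either. Cdh5 passed with each array centred on its median (-0.27, adjusted p = 0.0427) and with array weights (-0.24, 0.0104).

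All but 3 of the 8 HAW arrays had names in lower case, a style that no HAMS array had. With the name style as a block Tek was at 0.23 (adjusted p = 0.194) and Kdr at 0.08 (0.599). Within the arrays named code first, 3 HAW and 8 HAMS, Tek differed by 0.29 (adjusted p = 0.649) and Kdr by 0.03 (0.967), so neither call held within that style. The Kdr call was lost in 10 of 16 fits that left out 1 array, HAMS replicates 2, 4, 6, 7 and 8 and HAW replicates 1, 2, 3, 5 and 7 (adjusted p up to 0.113). Of 30 further endothelial genes 4 rose and 2 fell, beside 10.9% of all genes higher and 2.40% lower. Their median was 0.03, against 0.07 over all genes. Adgrl4 (0.42 ± 0.11), Podxl (0.44 ± 0.13) and Robo4, an endothelial guidance receptor (0.27 ± 0.07), were among those that rose. Icam2, which leukocytes also carry, fell (-0.80 ± 0.24). Of 12 arterial, venous and Notch genes, Jag1 (0.48 ± 0.10) and Efnb2 (0.48 ± 0.17) rose and Gja4 (-0.36 ± 0.10) fell. Nrp2 (0.42 ± 0.10), Nrp1 (0.36 ± 0.12) and Vegfa (0.39 ± 0.13) rose, 3 of 11 genes of the VEGF and angiopoietin pathway, whose median was 0.04. Beside them 3 of 8 pericyte genes, 6 of 10 fibroblast genes and 5 of 11 epithelial genes rose. Over all genes the 1458 calls became 1 within the arrays named code first, 23 with array spread as a covariate and 47 with block and B cell level.

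The amylose difference in wheat was not shown to differ from that in maize for any member. The interaction, HAW minus LAW less HAMS minus LAMS, called 3 of all genes (0.0274%, with 0.00915% higher and 0.0183% lower) and no member. An unadjusted p under 0.05 was seen in 3 members, Esam (0.43 ± 0.18, adjusted p = 0.26), Tek (0.42 ± 0.19, 0.294) and Cdh5 (-0.31 ± 0.12, 0.245).

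The members did not vary as 1 block among animals of the same diet. After removal of diet means, 16 of the 36 pairs correlated over 43 arrays (permutation within diets, Benjamini-Hochberg adjusted over 36 pairs), 12 of them positively and 4 negatively, and 14 passed by rank. The points share arrays and their normalisation, so these values describe co-variation and not a direct link. The share of pairs that would pass among all genes tested was not counted, so 16 of 36 cannot be called particular to these genes. Tie1 and Pecam1 followed each other most closely, with r = 0.86 and rho = 0.85 (permutation p = 1e-05, the smallest that the permutations can give; adjusted p = 0.00036). Cdh5 had r = 0.64 with Pecam1 (rho = 0.61, adjusted p = 0.00063) and r = 0.58 with Tie1 (rho = 0.53, adjusted p = 0.00206). Another set held Tek, Esam and Emcn, with r = 0.62 between Esam and Emcn (rho = 0.62, adjusted p = 0.00063) and r = 0.61 between Tek and Emcn (rho = 0.59, adjusted p = 0.00072). Eng and Plvap correlated at r = 0.51 (rho = 0.48, adjusted p = 0.00337). These sets were not separate, as other positive pairs that passed joined them. Eng had r = 0.47 with Emcn (adjusted p = 0.0113), 0.40 with Esam (0.0427) and 0.39 with Tek (0.0268). Kdr had r = 0.48 with Pecam1 (adjusted p = 0.0152) and 0.41 with Tek (0.0418).

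Over all arrays some members of different sets had negative r. Pecam1 and Esam had r = -0.57 (rho = -0.50, adjusted p = 0.00063), Tie1 and Esam r = -0.57 (rho = -0.51, adjusted p = 0.00206), and Tie1 and Emcn r = -0.41 (rho = -0.38, adjusted p = 0.029). Without the 2 arrays farthest from the median, r was 0.82 for Tie1 and Pecam1, 0.69 for Cdh5 and Pecam1, 0.49 for Eng and Plvap and -0.57 for Pecam1 and Esam. Within the 16 arrays named in lower case, r was 0.94 for Tie1 and Pecam1, 0.47 for Eng and Plvap and -0.51 for Pecam1 and Esam. Within the 19 arrays named code first, the same 3 pairs had r = 0.86, 0.73 and -0.76.

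**Figure D3:**
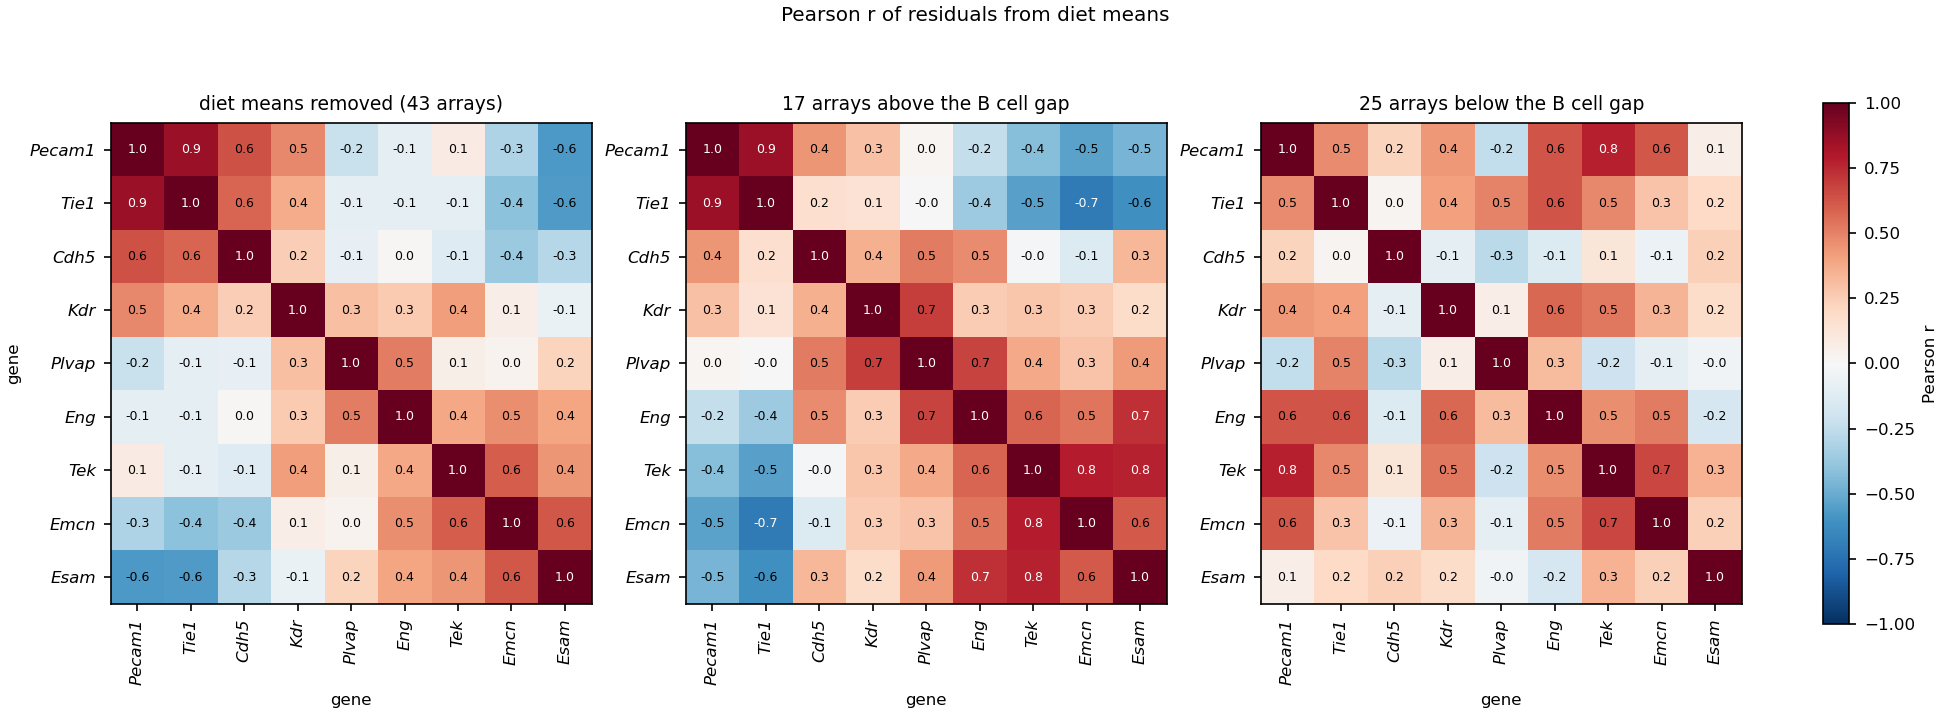
Pearson correlation of every pair of the 9 members after removal of diet means, as coloured grids with the rounded value in each cell, over all 43 arrays (left), the 17 arrays above the gap in B cell level (middle) and the 25 below it (right). Over all arrays Tie1, Cdh5 and Pecam1 correlate positively with each other (0.58 to 0.86), Tek, Esam and Emcn do likewise (0.44 to 0.62), and Tie1 and Pecam1 run against Esam (-0.57 each).

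The amount of lymphoid signal in a piece differed strongly between animals of every diet. Among the arrays where it was higher, it correlated with Emcn, Tek, Tie1, Pecam1 and Esam, in differing directions. The mean level over the 9 B cell and germinal centre genes fell on either side of its widest gap, from 5.73 to 6.44 (0.70 wide, against 0.59 for the next), with 18 arrays above it and 25 below. Those above were 3 of 8 HAW, 2 of 6 LAW, 3 of 9 HAMSB, 6 of 8 HAMS, 3 of 7 LAMS and 1 of 5 CON arrays. The widest gap was little wider than the next, and whether the arrays form 2 clusters was not tested. Relations to that level are given on each side of the gap. Within 17 arrays above the gap, of diets with more than 1 such array, Emcn had r = -0.90 (rho = -0.86, adjusted p = 0.00207 over 27 relations, permutation within diets) and Tek r = -0.81 (rho = -0.75, adjusted p = 0.0322). Tie1 had r = 0.82 there (rho = 0.84, adjusted p = 0.00121) and Pecam1 r = 0.75 (rho = 0.77, adjusted p = 0.0456). Esam had r = -0.66 (rho = -0.62, adjusted p = 0.0456), and passed by r but not by rank. Without the 2 arrays farthest from the median, r was -0.85 in Emcn, -0.73 in Tek, 0.83 in Tie1, 0.84 in Pecam1 and -0.64 in Esam. Eng, Plvap, Kdr and Cdh5 did not pass, with r from -0.51 to 0.32. Within the 25 arrays below the gap no member passed, with r from -0.26 (Esam) to 0.20 (Cdh5). The share of all genes tested that run with the B cell level on either side was not counted.

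**Figure D4:**
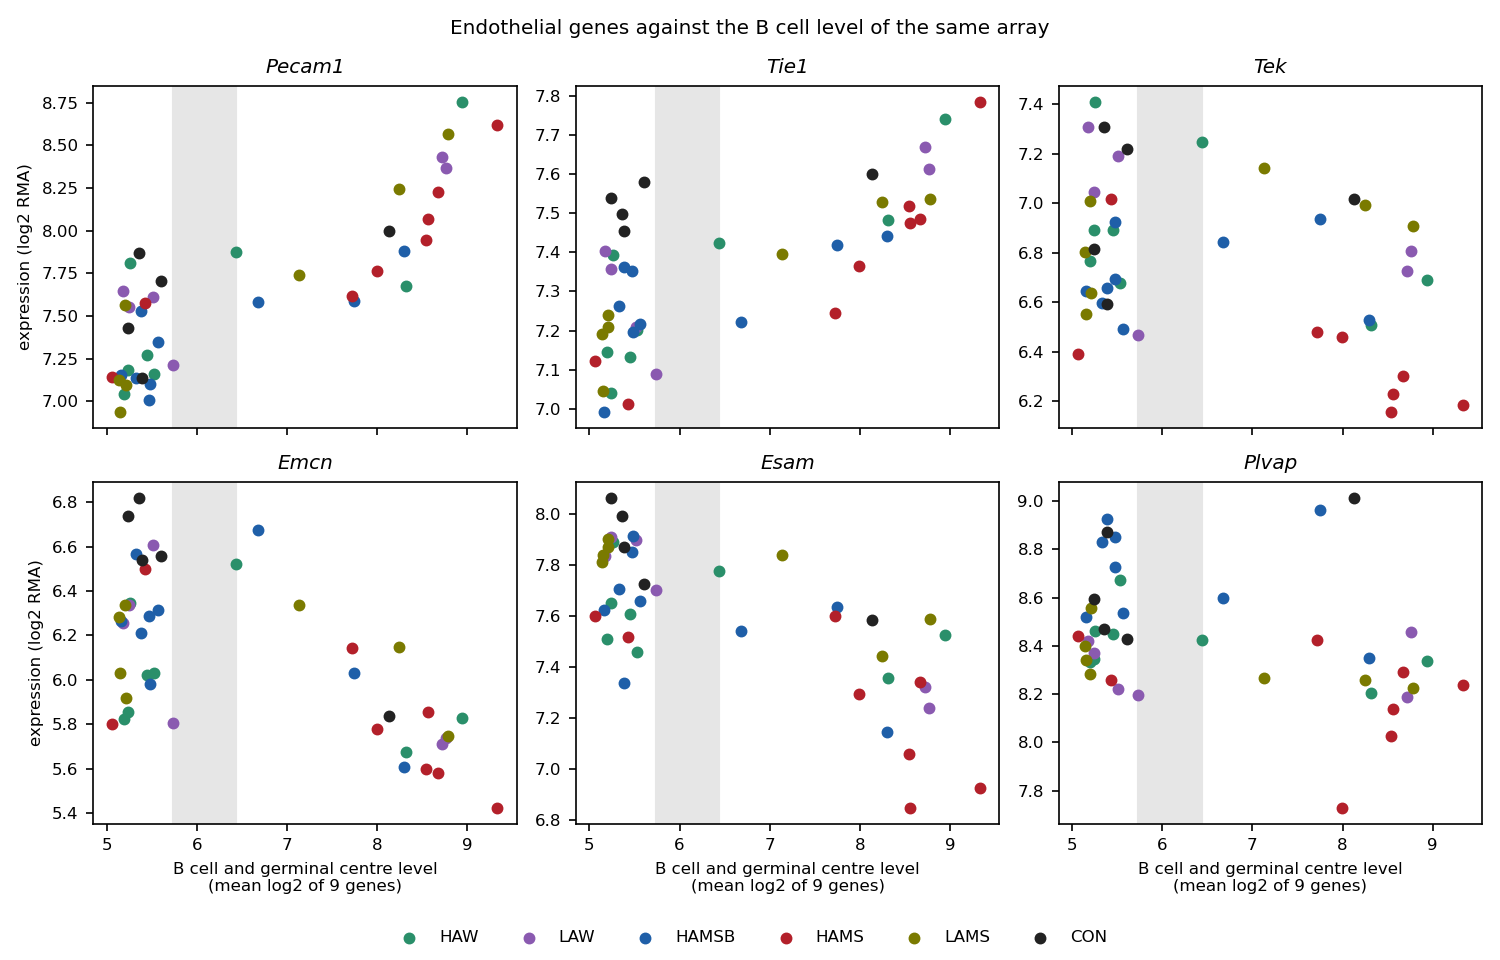
Log2 level of Pecam1, Tie1, Tek, Emcn, Esam and Plvap (vertical axes) against the mean log2 level of 9 B cell and germinal centre genes (horizontal axis), with 1 point per array, coloured by diet. Arrays lie on either side of a gap from 5.73 to 6.44, and among those above it Emcn and Tek are lower, and Tie1 and Pecam1 higher, where the B cell level is higher.

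The pairs changed with the side of the gap in B cell level. Within the 25 arrays below the gap the negative pairs were not negative, at r = 0.07 for Pecam1 and Esam, 0.20 for Tie1 and Esam and 0.28 for Tie1 and Emcn. With the B cell level removed beside diet means they had r = 0.0896, 0.0593 and 0.17. Tie1 and Cdh5 had r = 0.17 above the gap, 0.03 below it and -0.0053 with the B cell level removed, and Cdh5 and Pecam1 had 0.44, 0.23 and 0.11. Tie1 and Pecam1 had r = 0.86 within the 17 arrays above the gap and 0.47 within the 25 below. Tek and Pecam1, at r = 0.09 over all arrays, had r = -0.42 above the gap and 0.78 below it, and Pecam1 and Emcn had -0.54 above and 0.62 below. Tek and Emcn stayed positive in both, at 0.79 and 0.67, and Eng and Plvap at 0.67 and 0.32. The part of lymphoid tissue in the members' differences between diets was not tested beyond the fits with the B cell level as a covariate.

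The spread of an array also ran with Kdr and Tek. Kdr had r = 0.66 with the interquartile range of its array over 43 arrays after removal of diet means (rho = 0.65, adjusted p = 0.00054 over 27 relations, permutation within diets), and Tek r = 0.49 (rho = 0.50, adjusted p = 0.027). Tie1, of the same receptor family as Tek, did not pass (r = 0.16, rho = 0.22, adjusted p = 0.63). With name style means removed as well, r was 0.40 in Kdr and 0.22 in Tek. Esam passed by rank only (r = 0.34, rho = 0.44). How common such a relation to array spread is among all genes tested was not counted. HAMS held the narrowest arrays on average, 3.01 ± 0.14 (SD), with 3.18 ± 0.23 in HAW, 3.22 ± 0.15 in LAW, 3.12 ± 0.08 in HAMSB, 3.21 ± 0.09 in LAMS and 3.30 ± 0.05 in CON. The narrowest were HAW replicate 8 (2.68) and HAMS replicate 6 (2.72), against 2.95 for the next.

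Of all other genes, those that followed the mean of the 9 members most closely after removal of diet means were Osbpl1a (r = 0.81 over 43 arrays), the growth factor Igf1 (0.79), the kinase Braf (0.78), the mesenchymal filament gene Vim (0.75) and Phactr2 (0.75). Adamts5, Nup155, Mtdh, Entpd1 and Sulf1 followed, each at 0.74. Some members had negative r with each other, so a gene close to their mean need not follow each member. Because the members fell into partly joined sets, the genes most like Pecam1 and Emcn were looked up as well, a choice made after those sets were seen. The nearest to Pecam1 were Ebf1, a B lineage transcription factor that stromal cells also make (r = 0.94), Myo5a (0.94), Arhgef6 (0.93), Irak3 (0.93) and Hps3 (0.93). The nearest to Emcn were Cacnb2 (0.83), Dgki (0.80), Gpx7 (0.80), Cpa6 (0.80) and Scn7a (0.80).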

How the data were processed

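RNA of distal colon from 43 rats was measured on Affymetrix arrays. The authors deposited 1 table of log2 expression values for 29214 probe sets. Per the submitters' processing notes these are RMA values, and no version is given. RMA corrects background and adjusts arrays toward a shared distribution, so a shift of all genes in the tissue may be removed. The arrays used still differed in interquartile range, from 2.68 to 3.40. The median difference over all genes was -0.07 for the Western-type diets against CON. With each array centred on its median, the 157 calls of that comparison became 0. The values ran from 1.31 to 14.05. Probe sets had 1 symbol (15310), several (323, not used) or none (13581). The probe set with the highest mean stood for each symbol, and genes with a median of at least the 25th percentile (4.75) were tested.

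A mean per diet was fitted to all 43 arrays with limma 3.58.1 in R 4.3.3 (lmFit, eBayes, Benjamini-Hochberg, threshold 0.05). The procedure was tested on simulated data. Correlations used residuals from diet means and permutation within diets (numpy 2.4.6, Python 3.11.15), and figures matplotlib 3.10.9. Arrays have no read depth, and the number of rats limits the precision. Samples were grouped by the diet in their titles, and the label HAM was read as HAMS. Every member could be named in every comparison, with at most 3 genes of smallest p per list in comparisons where the list had a passing gene, and the 10 genes most like the members' mean. The members and the 15 gene lists were chosen with earlier results of these data known. Gene positions and names follow RefSeq, build GRCr8. Replicate numbers did not pair the samples. Raw array images were not used here.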

Additional observations from a re-analysis of the deposited data

Results flagged for a closer look

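In 4 of the 54 combinations of member and diet examined, 1 array lay far from the others of its diet by Dixon's criterion, which chance meets in about 1 in 20. In Kdr, LAW replicate 2 was at 6.39, with the nearest LAW array at 6.83. In Tek, HAMS replicate 5 was at 7.02, with the nearest HAMS array at 6.48, and it is the HAMS array that overlapped LAMS and HAW. In Eng, HAMSB replicate 9 was at 8.21, with the nearest HAMSB array at 8.60, the only HAMSB array below the highest HAMS array. In Emcn, CON replicate 5 was at 5.84, with the nearest CON array at 6.54, and it was the 1 CON array above the gap in B cell level. Their causes were not tested.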

How the results depend on the processing

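The count of called members in each comparison, and the count of pairs that passed, were recomputed under each alternative. Of these 120 counts, 95 stayed within 1.5 times the main one, and a count of 0 that stayed at 0 is included in the 95. HAW against LAW and LAW against LAMS called no gene at all in any setting, so their counts say nothing about stability. Over all diets, 5 members passed, against 3 with a block for name style, 1 with block and B cell level, and 2 with array spread as a covariate. For the Western-type diets against CON, 0 became 3 with array weights, 2 with the style block and 1 with the B cell level. For LAMS against CON, 0 became 1 with array weights and 1 with block and B cell level. For HAMS against LAMS, 3 became 5 with array weights, and 0 with block and B cell level, with array spread, and within 1 name style. For HAMSB against LAMS, 2 became 1 without a filter, with the block, with block and B cell level, and within 1 style. For HAMSB against HAMS, 3 became 7 with array weights and 5 with the block. For HAW against HAMS, 2 became 6 with array weights, 0 with the block, with block and B cell level, with spread and within 1 style, and 1 with the replicate block. The interaction had 1 with array weights. Leaving out 1 array gave 4 to 7 members over all diets, 0 to 1 for the Western-type diets, 2 to 3 for HAMS against LAMS, 0 to 2 for HAMSB against LAMS, 2 to 6 for HAMSB against HAMS and 1 to 4 for HAW against HAMS. The other comparisons of diets stayed at 0. Counts over all genes moved as well. They were 3355 over all diets, and 1398 with the style block, 533 with block and B cell level, 1533 with spread and 7524 with weights. For the Western-type diets 157 became 306 with the block, 244 with the B cell level, 31 with the replicate block and 742 with weights, and for HAW against HAMS 1458 became 808 with the block and 4742 with weights. The count over all genes for HAMS against LAMS was 1545, and 945 with the style block, 602 with the replicate block, 6 with array spread and 4059 with array weights, and for HAMSB against HAMS 1821, 3334, 2304, 2487 and 3791. Among 936 recomputed differences of single members no call turned direction, 34 calls were lost and 29 gained.

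Same-numbered arrays of different diets did not deviate together over the genes tested (94 pairs, mean r = -0.06, range -0.79 to 0.64), so the numbers do not pair the samples, and the replicate block is given as a number only. Centring each array and the trended prior changed no count of members beyond that bound. With the B cell level removed beside diet means, added after seeing the data, 15 of the 36 pairs changed sign. In the 8 of them that passed with or without that removal, r was -0.0053 for Tie1 and Cdh5, 0.0593 for Tie1 and Esam, 0.17 for Tie1 and Emcn, 0.35 for Eng and Pecam1, 0.45 for Cdh5 and Esam, 0.0730 for Cdh5 and Emcn, 0.0896 for Pecam1 and Esam, and 0.43 for Pecam1 and Emcn. The causes were not tested. Within-style fits could not be made over all diets, for the Western-type diets or for the interaction, and no member had a further probe set to try. The stricter filter, a median of 6.43, drops Cdh5 and Emcn. The signal of low genes over background limits what the arrays show.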
